A study of Mus musculus with 6 samples.

Results

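The MYC network is described here through 9 genes, taken by name: the MYC genes *Myc*, *Mycn* and *Mycl*, their partner *Max*, and the genes of the competing MAX partners, *Mxd1*, *Mxi1*, *Mxd3*, *Mxd4* and *Mnt*. All 9 were among the 16279 genes listed in either table, were listed for both cell types, and were among the 12471 genes tested. Bulk RNA-seq had been made from male F1 mouse embryonic stem cells (mESCs) labelled C57BL/6 x CAST/EiJ (C57BL/6J mother and CAST/EiJ father in the study's methods), and from cardiac precursor cell cultures (CPCCs) derived in vitro from the same mESC clones, with 3 libraries of each. The mESC lines came from blastocysts and were single-cell clones kept on gelatin with LIF, a MEK inhibitor and a GSK3 inhibitor. The CPCCs came through embryoid bodies given ascorbic acid, were then plated with EGF and Fgf2, and were passaged as a mixed culture. Cell type and medium changed together and cannot be told apart, and in bulk RNA fewer cells of a type and less RNA per cell cannot be told apart. Libraries S01 to S03 are mESCs and S04 to S06 are CPCCs. Their columns could not be matched to a replicate number or parent clone, so the tests treat the 6 libraries as unrelated although the cell types share clones, and p-values measure the spread between these libraries.

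MYC proteins are basic helix-loop-helix leucine zipper factors that bind DNA as a pair with MAX. The pair recognizes E-boxes, of which CACGTG is the best known form, and recruits histone acetyltransferase complexes, and its targets include genes for ribosome biogenesis, nucleotide synthesis and cell growth. The MXD proteins, MXI1 and MNT also pair with MAX, bind the same E-boxes and recruit SIN3 and histone deacetylases. In mouse embryonic stem cells *Myc* and *Mycn* are both known to contribute to self-renewal, and *Mycn* is needed in the embryonic heart.

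The libraries held between 6442639 and 6907330 counts in mESCs and between 8468819 and 11436062 in CPCCs, and levels below are CPM, counts scaled to a common library size with TMM factors. Sums over marker or gene lists are CPM over whole tables without TMM. All 8 pluripotency markers fell in CPCCs. Of 8 cardiac progenitor genes 4 were tested, all with a positive log2 fold change. *Tnnt2* passed by edgeR, and DESeq2 also called *Pdgfra* (adjusted p = 0.0415). Listed for CPCCs alone were *Mef2c* (194, 82 and 112 counts), *Hand2* (68, 9 and 17) and *Nkx2-5* (16, 0 and 8), while *Tbx5* was listed for mESCs alone (7, 0 and 4). All 8 summed to between 41.8 and 120.6 CPM in CPCCs against 4.42 to 6.36 in mESCs. *Tnnt2* was the largest part of each CPCC sum, at 102.6, 24.0 and 28.3 CPM in S04, S05 and S06. Its log2 fold change was 5.01, and 4.04 without S04. The 8 mesenchymal markers summed to between 14452 and 19852 CPM in CPCCs and to between 98.4 and 131.2 in mESCs. The summed neural markers (5 genes) were also higher, at 503.7 to 584.0 against 42.1 to 47.8, and the endoderm markers (5 genes, with *Afp* and *Ttr* in neither table) reached 32.4 to 53.6 against 1.71 to 7.09. The 7 markers of dividing cells summed to between 2834 and 3145 CPM in mESCs, and to 502.9 in S04, 1212 in S05 and 1658 in S06, so S04 stood lowest among the CPCCs. Their part, and that of the other cell types, in the values below was not tested.

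RefSeq promoter windows (GRCm38.p6, from 250 bases before to 50 after a start) matched 8 of the 9 members, with 10 windows since *Mxi1* has 3; *Myc* had no entry. CACGTG, which reads the same on both strands, lay in 3 of these windows, those of *Max*, *Mxd4* and *Mnt*, and in 7.15% of all 32851 windows (10.1% of the 12439 windows of genes tested). The windows with the motif are shown because the network's own partner genes carry the letters its proteins bind, and that of *Mycn* is shown beside them as the MYC gene with the larger read count. Each reads 5′ to 3′, with CACGTG in capitals.
Max, chr12:76962199-76962498, minus strand: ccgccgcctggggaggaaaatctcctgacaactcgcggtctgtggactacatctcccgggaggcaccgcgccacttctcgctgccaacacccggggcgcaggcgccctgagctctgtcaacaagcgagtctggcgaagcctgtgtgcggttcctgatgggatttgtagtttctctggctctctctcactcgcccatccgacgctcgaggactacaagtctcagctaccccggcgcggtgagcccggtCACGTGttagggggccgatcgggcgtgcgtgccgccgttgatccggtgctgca
Mnt, chr11:74830674-74830973, plus strand: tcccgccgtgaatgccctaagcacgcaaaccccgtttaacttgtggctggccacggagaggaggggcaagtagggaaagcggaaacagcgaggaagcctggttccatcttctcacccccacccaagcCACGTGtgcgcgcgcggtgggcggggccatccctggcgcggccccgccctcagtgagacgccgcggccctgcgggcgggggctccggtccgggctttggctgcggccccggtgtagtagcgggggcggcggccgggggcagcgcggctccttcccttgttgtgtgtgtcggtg
Mxd4, chr5:34187661-34187960, minus strand: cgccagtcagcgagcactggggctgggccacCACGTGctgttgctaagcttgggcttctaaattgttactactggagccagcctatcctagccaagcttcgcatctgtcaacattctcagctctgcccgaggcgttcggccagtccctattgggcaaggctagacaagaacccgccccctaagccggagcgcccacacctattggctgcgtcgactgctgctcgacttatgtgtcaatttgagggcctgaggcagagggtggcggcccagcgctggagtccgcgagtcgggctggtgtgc
Mycn, chr12:12941787-12942086, minus strand: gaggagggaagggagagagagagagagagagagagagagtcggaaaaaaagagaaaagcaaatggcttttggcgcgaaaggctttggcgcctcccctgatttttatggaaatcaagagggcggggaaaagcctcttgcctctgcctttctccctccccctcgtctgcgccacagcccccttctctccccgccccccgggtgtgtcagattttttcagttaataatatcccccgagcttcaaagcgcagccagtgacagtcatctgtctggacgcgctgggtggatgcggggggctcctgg
The motif began 3 bases before the start of *Max*, 123 before that of *Mnt* and 219 before that of *Mxd4*. *Max* and *Mnt* fell in CPCCs and *Mxd4* rose, so the genes that hold these letters moved in both directions. No match lay in the windows of *Mycn*, *Mycl*, *Mxd1*, *Mxi1* or *Mxd3*, which says only that the letters are not in these windows.

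To ask which members differ between the cell types, each was tested with edgeR's quasi-likelihood test across all genes. Of the 9 members 7 passed an adjusted p of 0.05, with *Myc*, *Mxd1* and *Mxd4* higher in CPCCs and *Mycn*, *Max*, *Mxi1* and *Mnt* lower, while *Mycl* and *Mxd3* did not pass. Across all genes tested 61.4% passed, 31.7% higher and 29.7% lower, so a count of 7 of 9 is near the background. The same 7 genes had libraries that did not overlap between the cell types, as did 69.7% of all genes tested. The median log2 fold change of the members was −0.66 and that of all genes 0.03, and the median size regardless of sign was 1.49 among the members and 0.97 among all genes. *Myc* and *Mxd4* reached the minimum of the low-count filter (1.33 CPM) in all CPCC libraries but in only 2 and 1 of the mESC libraries, so they passed it through the cell type in which they are high. Of the 7 other members 5 were called, 1 higher and 4 lower.

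**Figure D1:**
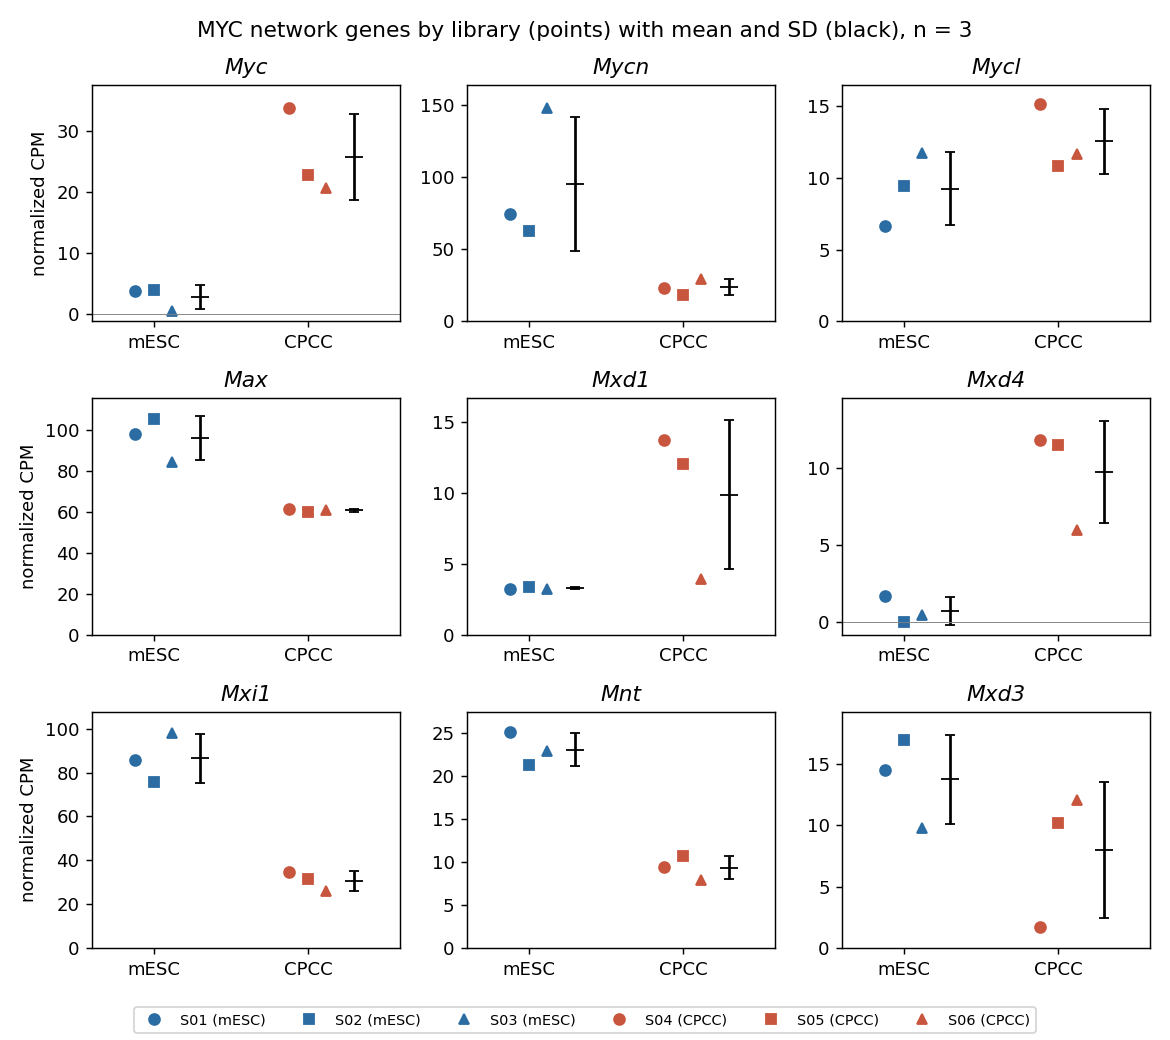
Normalized CPM (vertical axes, linear and each with its own range) of the 9 members in the 3 mESC libraries (blue) and the 3 CPCC libraries (red), with the mean and SD in black. *Myc* sits between 0.439 and 3.97 CPM in mESCs and between 20.6 and 33.7 in CPCCs, while *Mycn* sits between 62.8 and 147.9 in mESCs and between 18.4 and 29.6 in CPCCs.

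Among the MYC genes, *Myc* and *Mycn* moved in opposite directions. *Myc* (chr15:61985341-61990362, plus strand, GRCm38), the founding member, was counted 24, 27 and 3 times in the mESC libraries (S01 to S03), against 339, 188 and 180 times in the CPCC libraries (S04 to S06). These counts are 3.71, 3.97 and 0.439 CPM for mESCs and 33.7, 22.8 and 20.6 CPM for CPCCs. Every CPCC library was above every mESC library, and S03 held the lowest level. The mean rose from 2.71 ± 1.97 to 25.7 ± 7.0 CPM (SD, n = 3), a log2 fold change of 3.25 ± 0.57 (SE; 9.49-fold; edgeR adjusted p = 0.00111).

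*Mycn* (chr12:12936093-12941837, minus strand), the paralog first found in neuroblastoma, stood at 74.3, 62.8 and 147.9 CPM in mESCs, and its CPCC libraries held 23.0, 18.4 and 29.6 CPM. The groups did not overlap, and S03, the mESC library lowest in *Myc*, was the highest in *Mycn*. The mean fell from 95 ± 46.1 to 23.7 ± 5.60 CPM (SD, n = 3), which is 4.01-fold lower (log2 fold change −2.0 ± 0.34, edgeR adjusted p = 0.000908).

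*Mycl* (chr4:122995931-123002481, plus strand), the paralog first found in lung cancer, stood at 6.64, 9.41 and 11.7 CPM in mESCs, and its CPCC libraries held 15.1, 10.8 and 11.7 CPM. The groups overlapped. The log2 fold change of 0.44 ± 0.32 did not pass the test (edgeR adjusted p = 0.258), and it ranged from 0.25 to 0.64 when 1 library was left out.

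To compare the paralogs with each other, reads were divided by the length of the merged exons and taken as a share of the 3 MYC genes within a library, which needs no scaling between libraries. *Mycn* made up 88.8%, 84.2% and 94.0% of the MYC-type reads per kilobase in mESCs, but 31.4%, 34.9% and 47.6% of those in CPCCs. The shares did not overlap, and their mean went from 89.0% ± 4.88 to 37.9% ± 8.51 (SD, n = 3), a difference of −51.1 points. The exact two-sided permutation test gave p = 0.10 (adjusted over the 2 shares tested, 0.20), and 0.10 is the smallest p that 3 against 3 libraries allow. *Myc* made up 5.08%, 6.10% and 0.32% in mESCs and 52.8%, 49.4% and 38.0% in CPCCs. In S04 and S05 *Myc* had the largest share, and in S06 *Mycn* still did. *Mycl* had 7.16% ± 2.19 in mESCs and 15.3% ± 0.774 in CPCCs, beside a level per library whose ranges overlapped.

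**Figure D2:**
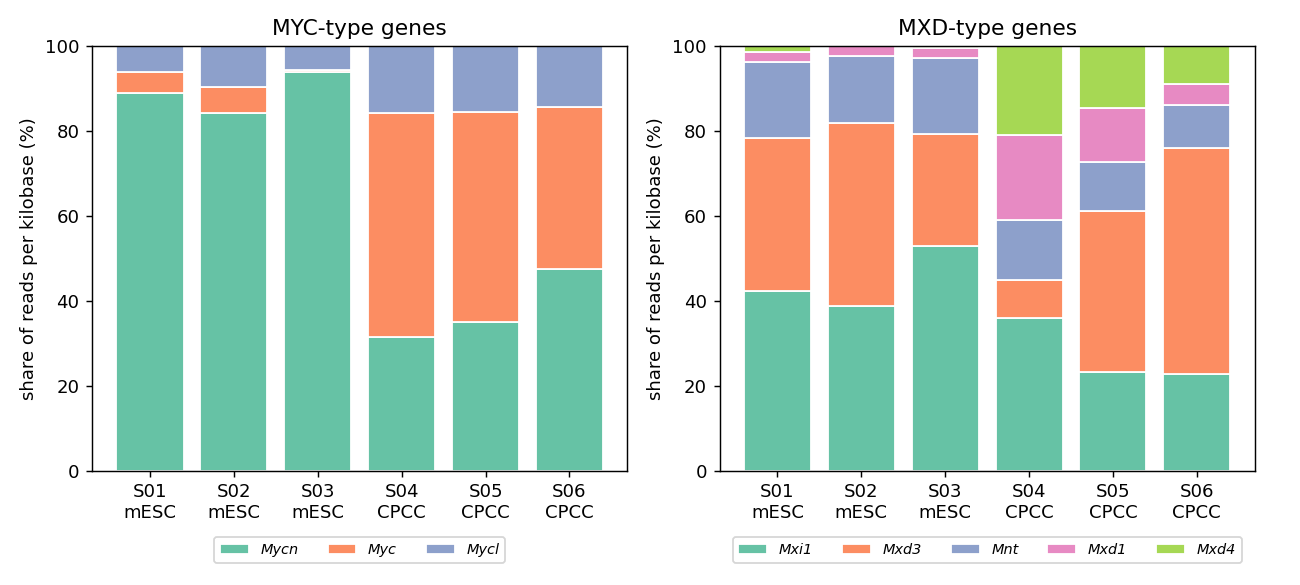
Stacked bars give, for each library, the share (%) of reads per kilobase of merged exons of the 3 MYC genes (left) and of the 5 MAX partners of the MXD type (right). *Mycn* takes 84.2% to 94.0% of the MYC-type reads in mESCs and 31.4% to 47.6% in CPCCs, and on the right *Mxd3* has its smallest share, 8.93%, in S04.

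*Max* (chr12:76937269-76962249, minus strand), the shared partner of every other member, stood at 98.1, 105.2 and 84.2 CPM in mESCs, and its CPCC libraries held 61.1, 60.03 and 60.7 CPM. Every CPCC library was below every mESC library, and the CPCC libraries differed little among themselves. The mean fell from 95.8 ± 10.6 to 60.6 ± 0.562 CPM (SD, n = 3), with a log2 fold change of −0.66 ± 0.16 (edgeR adjusted p = 0.00687). Per kilobase *Max* was the member with the highest mean level in both cell types, at 48.9 ± 5.44 CPM per kilobase in mESCs and 31.0 ± 0.287 in CPCCs.

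The 5 MXD-type partners were split. *Mxi1* and *Mnt* fell, *Mxd1* and *Mxd4* rose, and *Mxd3* did not pass the test. *Mxi1* (chr19:53310506-53375811, plus strand), which codes for the repressor MXI1, stood at 85.7, 75.9 and 98.1 CPM in mESCs, and its CPCC libraries held 34.8, 31.5 and 25.9 CPM. The groups were well apart, with a log2 fold change of −1.49 ± 0.19 (2.81-fold lower; edgeR adjusted p = 0.000191). Its exons share 2.91% of their bases with the opposite-strand gene *Gm10197*, and whether the counting used strand is not given in the sources used here. *Mnt* (chr11:74830924-74845726, plus strand), a broadly expressed antagonist of MYC, stood at 25.03, 21.2 and 22.8 CPM in mESCs, and its CPCC libraries held 9.44, 10.7 and 7.91 CPM. Its libraries did not overlap either, and its log2 fold change was −1.30 ± 0.25 (2.46-fold lower; edgeR adjusted p = 0.00161).

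*Mxd4* (chr5:34176580-34187711, minus strand), a repressor linked to differentiation, was counted 11, 0 and 3 times in the mESC libraries and 119, 95 and 52 times in the CPCC libraries. These are 1.70, 0 and 0.439 CPM in mESCs, where a count of 0 in S02 allows up to 0.441 CPM (3 counts, counting error only), and 11.8, 11.5 and 5.96 CPM in CPCCs. All CPCC libraries were above all mESC libraries. The log2 fold change was 3.77 ± 0.83 (edgeR adjusted p = 0.0036), and it rose to 5.38 without S01, which held 11 of the mESC counts, so its size rests on few reads. The GENCODE exons of *Mxd4*, which reach beyond its deposited position, share 13.2% of their bases with the antisense gene *Gm42846*.

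*Mxd1* (chr6:86647045-86669160, minus strand), the classical MAD gene that is induced as many cells differentiate, stood at 3.24, 3.38 and 3.22 CPM in mESCs, and its CPCC libraries held 13.7, 12.01 and 3.90 CPM. S04 and S05 were well above the mESC libraries and S06 was only just above them. The log2 fold change was 1.59 ± 0.50 (edgeR adjusted p = 0.021). The call was kept in only 1 of the 6 fits that left out a library, that without S06. The adjusted p was 0.0603 without S01, 0.0563 without S02, 0.062 without S03, 0.0508 without S04 and 0.0732 without S05 (edgeR), and DESeq2 gave an adjusted p of 0.00715 with all libraries.

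*Mxd3* (chr13:55325168-55329731, minus strand), the member of the MXD type known to be expressed in proliferating cells, stood at 14.5, 16.9 and 9.80 CPM in mESCs, and its CPCC libraries held 1.69, 10.2 and 12.03 CPM. The groups overlapped, and S04 stood far below the other libraries. The log2 fold change of −0.79 ± 0.59 did not pass the test (edgeR adjusted p = 0.27), and it was −0.29 without S04. S04 was also the library lowest in the dividing-cell markers, whose part in the value of *Mxd3* was not tested. The counts of *Mxd3* were not whole numbers, and its exons share 7.91% of their bases with the opposite-strand gene *Prelid1*.

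**Figure D3:**
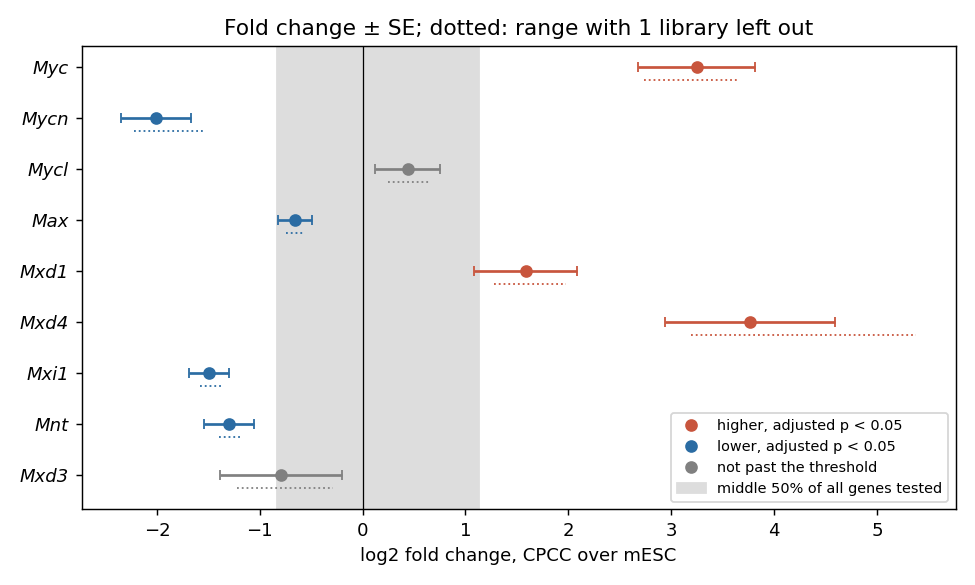
Points give the log2 fold change (CPCC over mESC, horizontal axis) of each member with its SE, dotted lines the range when 1 library is left out, and the grey band the middle 50% of all genes tested, from −0.84 to 1.14. *Myc* at 3.25 and *Mycn* at −2.0 lie on opposite sides of the band, and *Mycl*, *Max* and *Mxd3* lie within it.

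To set activators beside competitors, the levels per kilobase were summed by role. The MYC genes summed to 29.8, 26.6 and 56.1 CPM per kilobase in mESCs and to 26.1, 18.8 and 22.2 in CPCCs. The 5 MXD-type genes summed to 30.4, 29.5 and 27.9 in mESCs and to 14.5, 20.3 and 17.1 in CPCCs. Both sums were thus lower in every CPCC library than in any mESC library. In the MXD-type sum *Mxd4* is divided by a length that reaches beyond its deposited position. The MYC genes made up 54.6% ± 10.6 of the summed level of both roles in mESCs and 56.3% ± 8.01 in CPCCs (SD, n = 3), a difference of 1.69 points that was smaller than the spread within either group (exact two-sided permutation test, p = 0.90; adjusted over the 2 shares tested, 0.90). Leaving out S01, S02 or S04 turned the sign of that difference, to −0.84, −1.87 and −2.25 points.

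The shares within the MXD type are given as a description with no test. *Mxi1* went from 44.6% ± 7.30 to 27.3% ± 7.39 of the reads per kilobase and *Mnt* from 17.1% ± 1.26 to 11.9% ± 2.05 (SD, n = 3). *Mxd1* went from 2.41% ± 0.104 to 12.6% ± 7.64 and *Mxd4* from 0.61% ± 0.742 to 14.8% ± 5.96. The share of *Mxd4* rests on a length that reaches beyond its deposited position. By reads as counted it went from 0.54% ± 0.679 to 14.1% ± 3.06. *Mxd3* held 35.2% ± 8.32 in mESCs and 33.3% ± 22.5 in CPCCs, where its share ran from 8.93% in S04 to 53.2% in S06.

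The order of the members by level per kilobase differed between the cell types. In mESCs it ran *Max*, *Mycn*, *Mxi1*, *Mxd3*, *Mnt*, *Mycl*, *Myc*, *Mxd1* and *Mxd4*, from 48.9 to 0.18 CPM per kilobase. *Max* and *Mycn*, *Mxi1* and *Mxd3*, and *Myc* and *Mxd1* were neighbours with overlapping libraries, and the other neighbours were separate. In CPCCs it ran *Max*, *Myc*, *Mycn*, *Mxd3*, *Mxi1*, *Mycl*, *Mxd4*, *Mxd1* and *Mnt*, from 31.0 to 2.04 CPM per kilobase. There only *Max* was separate from its neighbour, *Myc*, and the ranges of all later neighbours overlapped. The place of *Mxd4* rests on a length that reaches beyond its deposited position, so its level per kilobase may be too low.

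Of the other genes of the extended network, 6 of 7 were tested (*Mycs* was in neither table). *Mlxip* (log2 fold change 1.20 ± 0.20, edgeR adjusted p = 0.000703), which codes for the glucose-sensing partner of MLX, and *Pvt1* rose. *Pvt1*, the long non-coding RNA gene next to *Myc* on chr15 (62037986-62260213), stood at 15.4, 9.71 and 8.34 CPM in mESCs, and its CPCC libraries held 39.0, 36.9 and 25.8 CPM, with no overlap and a log2 fold change of 1.6 ± 0.30 (edgeR adjusted p = 0.00153). *Mga*, a MAX partner that also carries a T-box, fell by 0.74 ± 0.16 on the log2 scale (edgeR adjusted p = 0.00395). *Mlxipl*, which codes for the carbohydrate-response factor ChREBP, had 60, 61 and 28 counts in mESCs and 10, 7 and 3 in CPCCs, with a log2 fold change of −3.32 ± 0.59 (edgeR adjusted p = 0.0012). No CPCC library reached the minimum of the low-count filter for *Mlxipl*, so it passed through mESCs, where it is high. *Mlx* (−0.33, edgeR adjusted p = 0.176) and *Bmyc* (−0.15, edgeR adjusted p = 0.61) did not pass.

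Genes that work with or on MYC and MXD proteins are counted beside 29.7% lower and 31.7% higher among all genes. Of 12 MYC cofactor genes 9 fell and 2 rose (median log2 fold change −0.82). *Wdr5*, which codes for a chromatin adaptor that binds MYC, fell by 2.44 on the log2 scale, and the helicase genes *Ruvbl2* and *Ruvbl1* of the TIP60 complex fell by 1.59 and 1.38. The acetyltransferase gene *Kat5* and its scaffold *Trrap* rose, with log2 fold changes of 0.96 and 0.75. Of 12 genes for MYC turnover 6 fell and 1 rose (median −0.50). *Usp28*, for a deubiquitinase that stabilizes MYC, fell by 2.12, the mitotic kinase gene *Aurka* by 1.91 and the ubiquitin ligase gene *Skp2* by 0.76, the last with a call that was lost without S02 (edgeR adjusted p = 0.0507). *Gsk3b*, for a kinase that marks MYC for degradation, rose, from 41.6, 42.1 and 48.7 CPM in mESCs to 160.4, 103.7 and 100.4 CPM (log2 fold change 1.46 ± 0.22, edgeR adjusted p = 0.00047). The count of genes that fell in this list was 3 without S02. Of 13 genes for the corepressors of MXD and MNT 8 fell and 2 rose (median −0.73). *Hdac1* fell by 1.95, *Sap30* by 1.57 and *Sin3a* by 1.44, whereas *Hdac2* rose, with a log2 fold change of 0.56, so the paralogs *Hdac1* and *Hdac2* moved in opposite directions.

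Genes for nucleolar proteins and ribosome biogenesis, a classical group of MYC targets, were lower in CPCCs. Of 28 such genes 25 fell, beside 29.7% lower among all genes, and none rose by edgeR or DESeq2. All 28 had a negative log2 fold change, called or not, with a median of −1.30 beside 0.03 among all genes tested. The 28 genes summed to between 8332 and 8858 CPM in mESCs and to 2300, 2571 and 3390 in S04, S05 and S06. *Dkc1*, for the pseudouridine synthase of the nucleolus, fell by 2.48, *Ncl*, for nucleolin, fell by 1.81 and *Npm1*, for nucleophosmin, fell by 1.75 on the log2 scale. *Npm1* stood at 2871, 2600 and 2766 CPM in mESCs, and its CPCC libraries held 827.2, 682.5 and 939.2 CPM. The genes that did not pass were *Mrto4* (−0.61), *Utp20* (−0.31) and *Tbl3* (−0.21).

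Genes of polyamine, nucleotide and energy metabolism and of the cell cycle that are known as MYC targets followed the same direction, with 21 of 25 lower, 1 higher and a median log2 fold change of −1.18, beside 29.7% lower and 31.7% higher among all genes. *Shmt1*, of one-carbon metabolism, fell by 2.69 on the log2 scale, and fell by 3.45 without S06. The hexokinase gene *Hk2* fell by 2.06 and the purine synthesis gene *Paics* by 1.98. *Ccnd2*, which codes for cyclin D2, was the exception: it had 4, 14 and 3 counts in mESCs and was at 1407, 1513 and 1151 CPM in CPCCs (log2 fold change 10.32 ± 0.43, and 11.30 without S02; edgeR adjusted p = 1.28e-06). Among the mESC libraries S02 alone reached the minimum of the low-count filter, so *Ccnd2* passed it through CPCCs. *Tert*, *Ctps* and *Cdk4* did not pass. *Myc* was higher and *Mycn* lower in the same CPCC libraries in which these targets were lower. Of the 7 dividing-cell markers 6 fell (median −1.47; 29.7% of all genes), with sums that were lowest in S04, the library that also held the lowest sum of the nucleolar genes, and their part in these counts was not tested.

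Genes that MYC represses with MIZ1, or that go with growth arrest, were higher in 6 of the 11 tested, beside 31.7% among all genes, and none was called lower by edgeR (median log2 fold change 1.08). Of the 5 that did not pass, 1 had an unadjusted p under 0.05 by edgeR, *Ndrg2* (log2 fold change −0.61), which DESeq2 called lower. *Cdkn2b*, for the CDK4 and CDK6 inhibitor p15, stood at 7.26, 5.88 and 7.17 CPM in mESCs, and its CPCC libraries held 624.7, 438.9 and 307.9 CPM (log2 fold change 6.07 ± 0.31, edgeR adjusted p = 1.88e-06). *Cdkn1c*, for p57, stood at 2.63, 1.18 and 1.90 CPM in mESCs, and its CPCC libraries held 65.1, 6.67 and 9.05 CPM. S04 set its size, since the log2 fold change of 3.82 was 2.06 without S04. In mESCs S02 was under the minimum of the low-count filter, so *Cdkn1c* passed it through CPCCs. *Klf6*, for a zinc finger factor, had a log2 fold change of 3.46 ± 0.32 (edgeR adjusted p = 2.81e-05). *Cebpa* was listed only for CPCCs, with 23, 10 and 27 counts. The 12 genes summed to between 397.3 and 499.9 CPM in mESCs and to 3154, 2433 and 1915 in S04, S05 and S06, so S04, lowest in the dividing-cell markers, was highest here. The largest part of each sum was *Cdkn1a*, so the sums mainly follow that gene. With TMM it stood at 268.9, 254.3 and 289.9 CPM in mESCs and at 2364, 1672 and 1151 CPM in CPCCs.

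**Figure D4:**
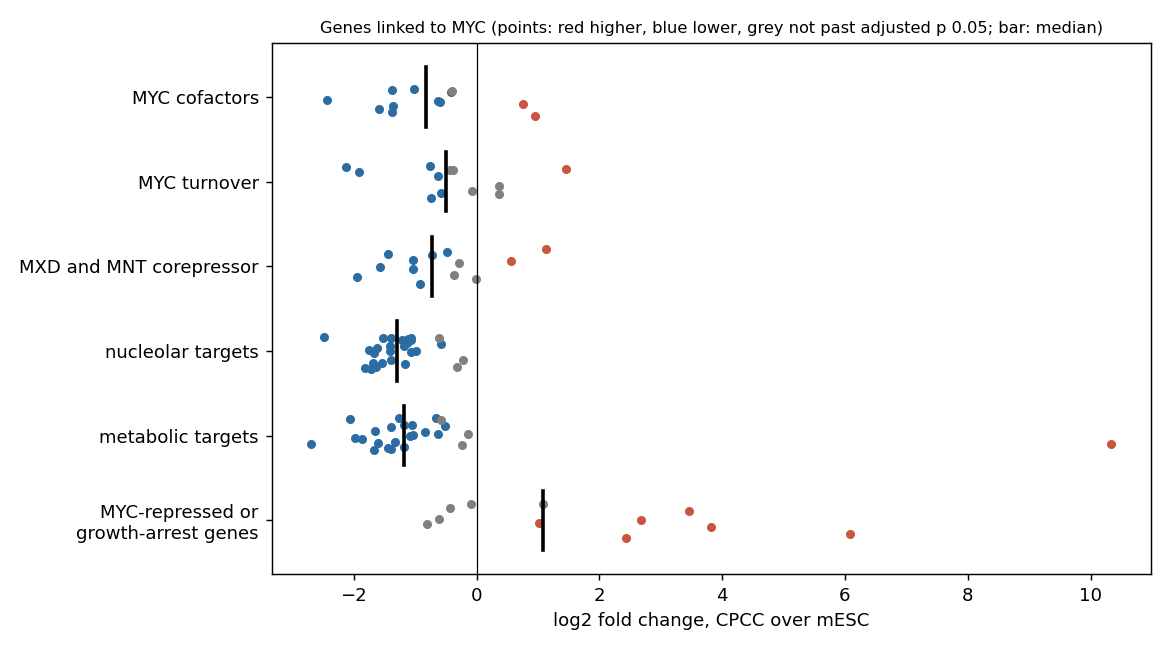
Each point is the log2 fold change (CPCC over mESC, horizontal axis) of 1 gene of a list linked to MYC, coloured by the test, with black bars at the list medians. All 28 nucleolar genes lie below 0, *Ccnd2* lies alone at 10.32 among the metabolic targets, and 6 genes of the growth-arrest list lie above 0 past the threshold.

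CACGTG lay in the promoter windows of 6 of the 22 nucleolar genes with an entry (27.3%) and of 9 of the 23 metabolic targets (39.1%), against 8.09% of all 27025 genes with a window and 12% of the 9748 that were tested. Of the 10 growth-arrest genes with an entry 3 held it. So did 2 of 6 extended network genes, 2 of 11 cofactor genes (18.2%), 1 of 10 turnover genes (10%) and 1 of 11 corepressor genes (9.09%). Among the markers it lay in 1 of 7 pluripotency genes and 0 of 6 dividing-cell genes. These are matches of letters, not sites of binding.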

How the data were processed

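PolyA-selected cDNA had been made with a SMART-Seq kit and sequenced in pairs. The authors deposited expected counts of reads per gene, 1 table per cell type, neither normalized nor separated by allele, in which between 17.9% and 21.5% of a library's values are not whole. The submitters' processing notes name STAR 2.7 and mm10; the counter and its use of strand are not given in the sources used here. Gene positions use GRCm38, and those deposited for the members differ from GENCODE at 1 or both ends. The widest gap is at *Mxd4*, deposited from 34176580 but starting at 34173883 in GENCODE. Part of the 3.882 kb of exons used as its length thus lies outside the deposited position, so its values per kilobase are uncertain.

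Counts were rounded. The 13001 genes in both tables went through edgeR's filterByExpr (530 removed) and were tested with edgeR 4.0.16 in R 4.3.3 (quasi-likelihood, TMM, Benjamini-Hochberg over all genes tested). The SE is the log2 fold change over the square root of F. Lengths came from GENCODE vM21 and promoter windows from RefSeq; plots used matplotlib 3.10.9. In a library 3 counts equal between 0.298 and 0.463 CPM. Replicate libraries differed by more than sampling noise (chi-square per degree of freedom 4.90 to 70.2). Tested on simulated counts of 12517 genes for CPCCs over mESCs, the fit recovered 69 of 100 changes of 2-fold and 100 of 100 of 4-fold, with 7 false calls. The simulation gave every gene the same spread between replicates and changed few genes, none with low mean counts. These figures therefore check the fit and give no error rate for these libraries or members. The members, lists and tests were chosen with earlier results of these data known. Named genes were all members, every network gene, the 3 largest called rises and falls of each other list, and the 3 genes nearest in pattern to each MYC gene; genes of this rule that are not named are not reported here. *Cdkn1a* was named in addition for its part in the growth-arrest sum. Marker lists were used by their sums and counts, with *Tnnt2* given for its part in the cardiac sum. Genes in only 1 table were not tested. Alternatives were DESeq2 1.42.0, other scalings and filters, missing genes at 0 or 3 counts, a 2-fold threshold, and each library left out.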

Additional observations from a re-analysis of the deposited data

How the results depend on the processing

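Over 14 settings and 9 members, 119 of 124 fold changes kept their direction and their side of the threshold, none reversed, and the 5 that lost the call were all of *Mxd1* with 1 library left out. *Myc* and *Mxd4* had no value with at least 10 counts required in every library. The number of members called was 6 to 7 with 1 library left out, and 6 where a 2-fold change was also required. The list counts moved as follows. With at least 10 counts in every library, 1 extended network gene was called lower and 0 metabolic targets higher, as that filter removes *Mlxipl* and *Ccnd2*. In the MYC turnover list 1 to 2 genes were higher (2 without S04) and 3 to 7 lower (3 without S02) with 1 library left out. In the growth-arrest list 1 gene was called lower by DESeq2 and 1 with missing genes at 3 counts, and 0 to 1 with 1 library left out (1 without S04). The cause of the other moves was not tested. The share of MYC genes among MYC and MXD-type reads differed by −2.25 to 7.79 points with 1 library left out, negative without S01 (−0.84), S02 (−1.87) and S04 (−2.25). That of *Mycn* among MYC genes differed by −55.9 to −47.8 points, by −49.1 for reads as counted, and by −51.0 per kilobase of the longest transcript, a scale chosen after seeing the data. No paired analysis was possible because the columns carry no replicate numbers, although the cell types share clones. Depth limits *Myc* and *Mxd4* in mESCs, with 3 to 27 and 0 to 11 counts per library.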

Other observations

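The genes nearest in pattern to each MYC gene were found by the root mean square difference of centred log2 CPM over the 6 libraries, among all genes tested, and are given as a description. For *Myc* these were *Vgll4* (0.18), which codes for a cofactor of TEAD factors, *Kcnmb4* (0.28) and *Adcy2* (0.35). *Vgll4* went from a mean of 2.30 CPM in mESCs to 23.3 in CPCCs. For *Mycn* they were *Gsr* (0.07), for glutathione reductase, and *4930452B06Rik* (0.10). *Gsr* went from 359.7 to 88.7 CPM. For *Mycl* they were *Cmip* (0.08), *Socs6* (0.10) and *Aldh3a2* (0.10), whose log2 fold changes were 0.35, 0.38 and 0.30. The levels per kilobase of *Myc* and *Mycn* in S03 stood at 0.18 and 52.7, the lowest and the highest of the mESC libraries.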
